A study of Mus musculus with 24 samples.

Results

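The immunoprecipitated (IP) and input RNA of 8 mouse hippocampi was compared to ask which transcripts differed in m6A enrichment between 5xFAD mice given MS1262 and wild-type mice. Enrichment was the ratio of IP to input within an animal, and the comparison used 16 of the 24 libraries of the series, from 4 MS1262 animals and 4 wild-type animals. The wild-type mice had no treatment. The MS1262 mice carried the 5xFAD transgenes, which include human APP with mutations found in inherited Alzheimer's disease and are driven in neurons by the Thy1 promoter, and were given MS1262, named in the series title as an inhibitor of the histone methyltransferase G9a that enters the brain. Genotype and compound therefore differ together between these groups and cannot be told apart in this comparison. The other 8 libraries came from 4 5xFAD mice given vehicle, which are placed beside the results. The labels call the wild-type mice age-matched, and give no age, dose or length of treatment. Every gene entered the comparison, and 18300 of the 55291 genes in the table passed the filter on low counts.

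N6-methyladenosine (m6A) is the most common internal mark of messenger RNA. It is placed by a nuclear complex around Mettl3 and Mettl14, can be removed by Fto and Alkbh5, and is bound by reader proteins that alter splicing, translation and decay of the transcript. In MeRIP-seq an antibody pulls down RNA that carries the mark, and the IP library is read against the input library of the same RNA. The protocol in the labels names no fragmentation before the antibody step, and cDNA was made with an oligo(dT) primer, so a ratio is read here per gene and not per site. All ratios are relative to the other genes of the library, and a change of total m6A would not be seen.

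The wild-type and MS1262 libraries held 10.6 to 48.6 M counts (M, 1e6), with 23.3 to 43.2 M in the wild-type inputs, 24.8 to 41.8 M in the MS1262 inputs, 10.6 to 48.6 M in the wild-type IPs and 25.97 to 43.2 M in the MS1262 IPs. Transcripts of excitatory neurons, astrocytes, microglia and oligodendrocytes were present in every input: Slc17a7 was at 5.70 to 6.09 log2 CPM (counts scaled to the size of the library), Aqp4 at 7.47 to 8.60, P2ry12 at 7.37 to 7.82 and Mog at 7.14 to 7.62. Some markers differed between the groups without overlap. Aqp4 of astrocytes was at 7.47 to 7.92 in wild-type and 8.06 to 8.60 in MS1262 inputs. The microglial markers Tmem119 and Cx3cr1 were at 0.62 to 1.37 and 3.94 to 4.22 in wild-type, and 2.00 to 2.51 and 4.83 to 5.16 in MS1262 inputs. The endothelial marker Cldn5 went the other way, at 0.73 to 1.24 in wild-type and 0.27 to 0.63 in MS1262 inputs. Other markers of astrocytes (Slc1a2, Aldh1l1) and microglia (P2ry12) overlapped between the groups. The part of these levels in the ratios was not tested. Ttr, the choroid plexus marker, ranged from 5.09 to 9.66 log2 CPM in wild-type inputs and from 5.05 to 7.43 in MS1262 inputs, and its part in the results was not tested. Mitochondrially encoded transcripts took 9.99 to 11.8% of the wild-type inputs and 12.2 to 12.9% of the MS1262 inputs, without overlap, and their part in the ratios was not tested either. One vehicle animal had an IP library of only 3.98 M counts and the widest spread of ratios over genes, with an SD of 1.02 on the log2 scale against 0.50 to 0.70 in the 8 animals compared. It entered the comparison through the estimate of spread that all groups share, the scaling and the filter on low counts, and 18589 genes were tested without it. Another animal, vehicle 3, stood apart in its input, with Ttr at 12.9 log2 CPM and the X-inactivation transcript Xist at 0.56, against 5.05 to 9.66 and 4.56 to 5.71 in the other 11 animals. Without vehicle 3, 212 genes differed.

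Thy1, whose promoter drives the transgenes, checked the labels. Its input level was 105 ± 8.69 CPM in wild-type and 580.5 ± 110 CPM in MS1262 animals (SD, n = 4 each), a log2 difference of 2.47 (adjusted p = 0.000125). The IP level was 126 ± 11.9 CPM and 561 ± 72.7 CPM, and the difference of IP over input for Thy1 was -0.30 (SE 0.17, adjusted p = 0.56). Mouse App had 656 ± 66.4 CPM of input in wild-type and 686 ± 41.9 CPM in MS1262 animals, and a difference of IP over input of -0.01 (95% interval -0.24 to 0.22).

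Most genes that passed were higher in MS1262 animals. At an edgeR adjusted p below 0.05, 227 of 18300 genes (1.24%) differed, of which 223 were higher (1.22%) and 4 were lower (0.0219%) in MS1262 animals. The median log2 difference was 0.93 over the 223 genes (0.49 to 5.08, the highest in the sparsely counted 2410018L13Rik) and -0.0022 over all genes, and 84 of the 223 were at least 2-fold higher. The 4 MS1262 animals lay beyond the 4 wild-type animals in all 227 genes. Over all genes, 1202 (6.57%) had every MS1262 animal above every wild-type animal and 723 (3.95%) had the reverse. The number of calls moved with the shallow vehicle library. Without that animal, vehicle 4, the same fit called 683 of 18589 genes higher and 175 lower. With the 16 wild-type and MS1262 libraries alone it called 610 of 17883 genes higher and 123 lower. All 223 genes were called higher under both settings. Other tests kept fewer of the 223: 117 with a replicate block across groups, 47 with limma on log2 CPM, 3 with limma on log2(TPM + 1) and 0 on log2(TPM + 0.1). Leaving out 1 of the 8 animals gave 58 to 180 calls, with 58 and 65 without wild-type 1 and 4 and 84, 67 and 106 without MS1262 2, 3 and 4. Every one of the 223 genes kept a difference above 0, but they were chosen as higher in these same libraries. That choice favours the sign and the calls kept, which are given as a description.

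**Figure D1:**
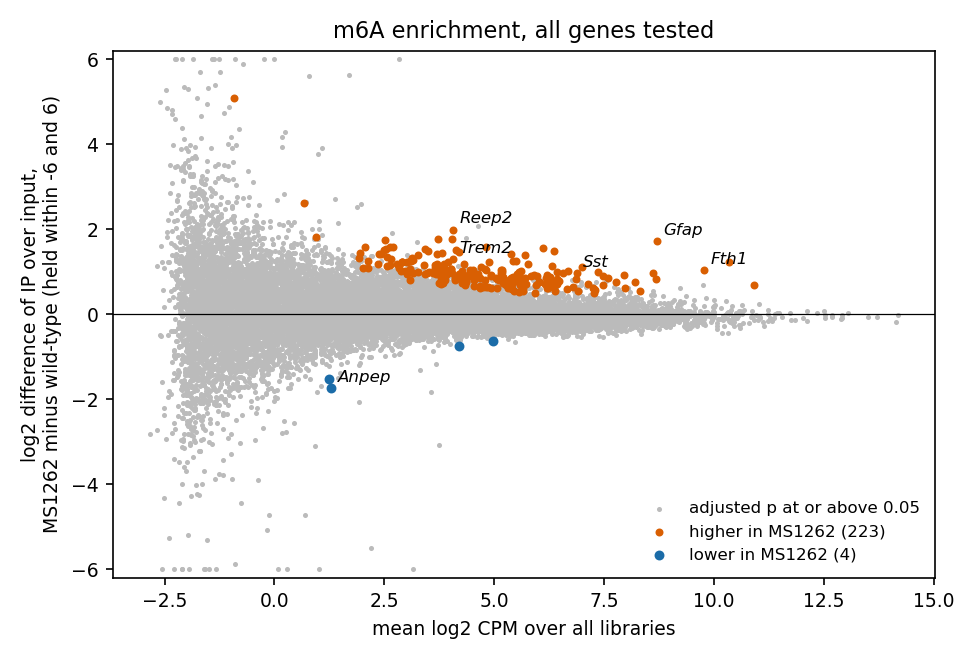
Log2 difference of IP over input, MS1262 minus wild-type, against the mean log2 CPM over all libraries, with 1 point per gene. The 223 genes called higher lie in a band mostly at the better counted levels, and the 4 called lower are few beneath it. The median of the mean log2 CPM was 4.74 over the 223 genes and 3.09 over all genes.

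The gene with the smallest p was Gfap, which encodes the intermediate filament of reactive astrocytes (chromosome 11, 102887336 to 102897200, GRCm38). Its log2 ratio of IP to input was 0.02, 0.63, 0.72 and 0.10 in the wild-type animals and 2.00, 2.25, 2.19 and 1.91 in the MS1262 animals. The groups did not overlap, and the fitted difference was 1.72 (SE 0.17, adjusted p = 0.000206). Input Gfap was 84.7 ± 38.5 CPM in wild-type and 232 ± 56.8 CPM in MS1262 animals, and IP Gfap was 105 ± 32.4 and 1002 ± 326 CPM. The input difference of Gfap did not pass (adjusted p = 0.0582), whereas the ratio did. Trem2, the microglial lipid receptor whose variants carry Alzheimer risk (chromosome 17, 48346401 to 48352276), was below its input share in wild-type IPs and above it in MS1262 IPs. Its log2 ratio was -0.86, -0.94, -0.49 and -0.31 in wild-type and 0.29, 0.51, 0.79 and 0.87 in MS1262 animals, a difference of 1.29 (SE 0.20, adjusted p = 0.00459).

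The next ranking left out Gfap, Trem2 and the other genes chosen for the model, the compound and m6A. Of its 15 genes with the largest increases at a mean of at least 1 log2 CPM, Reep2 came first. It encodes a membrane-shaping protein of the endoplasmic reticulum. Its log2 ratio was -0.19, 0.48, 0.33 and -0.10 in wild-type and 2.43, 2.24, 2.11 and 1.68 in MS1262 animals. This was a 3.98-fold higher ratio (log2 1.99, SE 0.20, adjusted p = 0.000206). Reep2 input fell to 6.93 ± 0.948 from 13.9 ± 3.42 CPM (adjusted p = 0.0192), while its IP level was 15.1 ± 2.83 CPM in wild-type and 30.8 ± 8.13 CPM in MS1262 animals. The other 14 had differences from 1.48 to 1.77. Ntmt1, an N-terminal protein methyltransferase, was at -0.37 to 0.82 in wild-type and 1.4 to 2.23 in MS1262 animals. None of the ranges given next overlapped. Id3, an inhibitor of helix-loop-helix transcription factors, was at -0.10 to 0.81 and 1.84 to 2.75. Crip2, a LIM domain protein, was at -0.87 to -0.43 and 0.52 to 1.21, and Sirt2, a deacetylase abundant in oligodendrocytes, at -0.44 to 0.38 and 1.02 to 1.71. The rest were the peroxisomal ATPase Pex6, Nosip, the collagen chaperone Serpinh1, Znrd2, the zinc finger genes Zfp64 and Zfp414, the mitochondrial ribosomal genes Mrpl2 and Mrps12, Ncln and Pigyl. Of these, Serpinh1 lost its call without wild-type 1, 3 or 4 or MS1262 2 or 3 (adjusted p up to 0.0906), Znrd2 and Zfp64 without wild-type 1 or 4 or MS1262 2, 3 or 4 (up to 0.0815 and 0.119), and Ncln without wild-type 1, 3 or 4 or MS1262 1, 3 or 4 (up to 0.119).

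**Figure D2:**
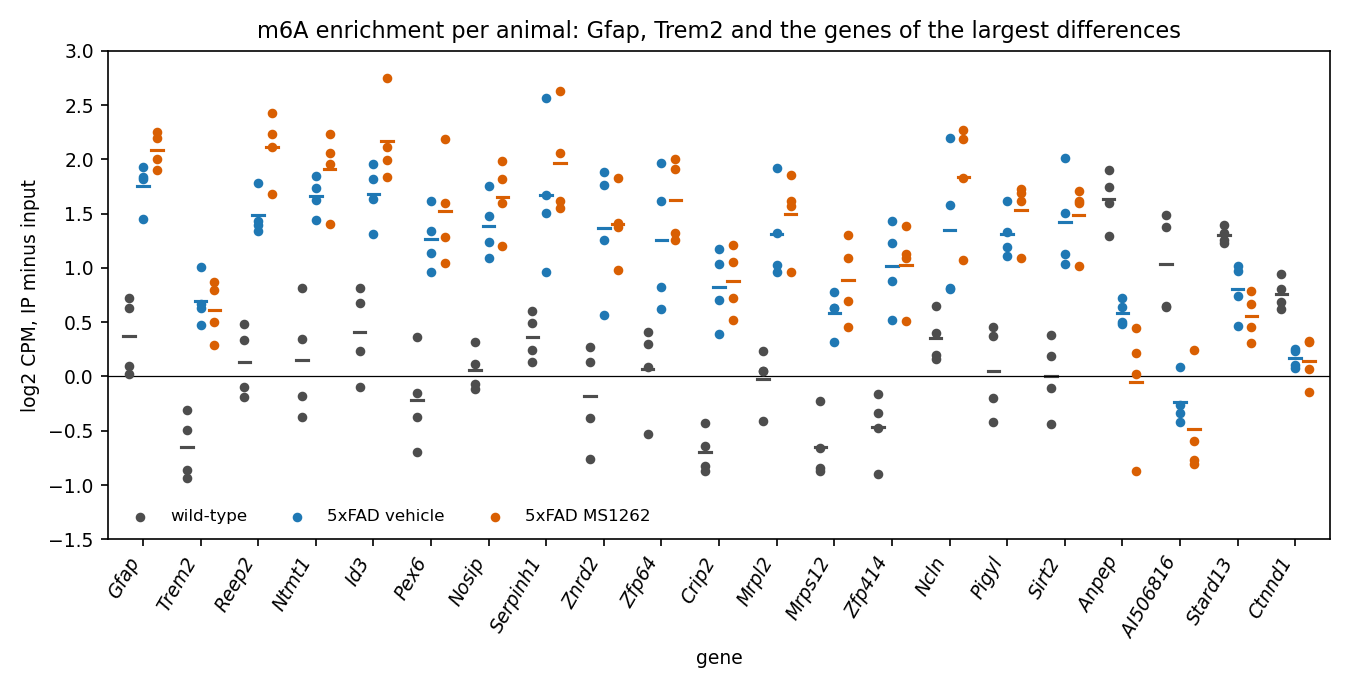
Log2 CPM of IP minus input in each animal (points) and the group mean (lines) for Gfap, Trem2, 15 further genes and the 4 genes called lower. The 15 are those of largest increase outside the genes chosen for the model, the compound and m6A. MS1262 animals (orange) lie apart from wild-type animals (grey) in each gene. Vehicle animals are shown in blue.

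In 209 of the 223 genes the input mean was lower and the IP mean higher in MS1262 animals, beside 3755 of all genes (20.5%). The genes were called on IP minus input, which favours these directions without fixing them. How far it does so was not tested, and the directions are given as a description. The median difference was -0.47 log2 CPM in the inputs and 0.45 log2 CPM in the IPs, against -0.01 and 0.02 over all genes. In the test of input expression, 230 of 17693 genes (1.3%) differed, 161 higher (0.91%) and 69 lower (0.39%). Of the 223 genes, 12 passed as lower there, among them Reep2, Sst, Pfdn1 and Pfdn6, and 3 as higher, Trem2, C1qb and Ucp2. Gfap, Trem2, C1qb, Ucp2, Cyb5r3, Trank1 and Vsir were the 7 whose mean input was not lower, and these were named for that after their values were seen. At the other end Sst, Mrpl53, Ndufb11, Timm23, Tmem242, Oaz1-ps and 2410018L13Rik had a mean IP level that was lower too, by less than their input.

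**Figure D3:**
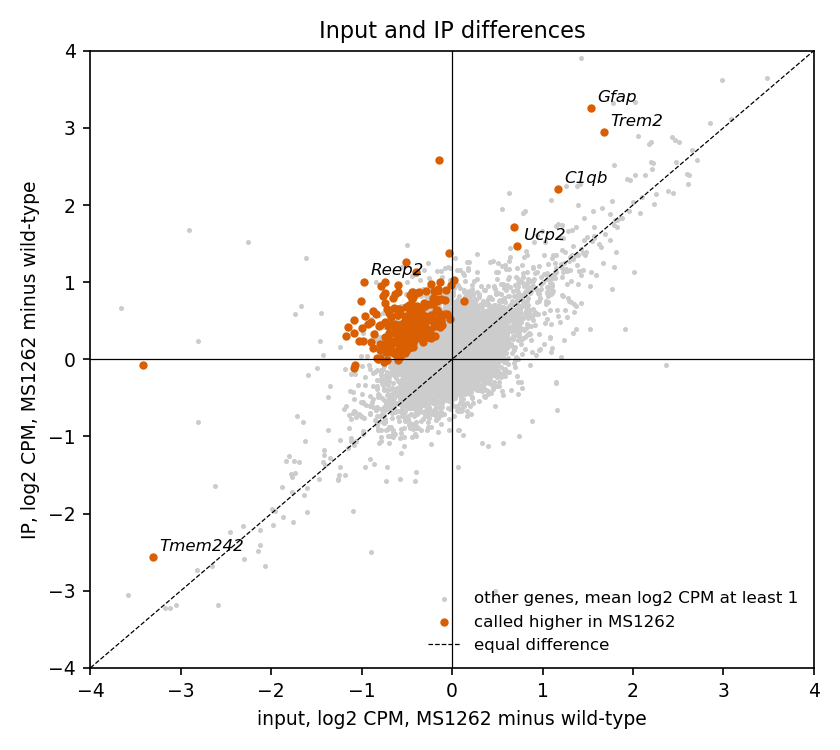
Difference in log2 CPM of the IP libraries against that of the input libraries, MS1262 minus wild-type, with 1 point per gene (grey, genes of a mean log2 CPM of at least 1); the dashed line marks equal differences and so no change of the ratio. The 223 genes called higher (orange) lie above the line, most of them left of 0 in input and above 0 in IP.

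The 4 genes called lower were Anpep, AI506816, Stard13 and Ctnnd1. Anpep, a membrane aminopeptidase, had log2 ratios of 1.74, 1.30, 1.60 and 1.91 in wild-type and 0.22, 0.02, -0.87 and 0.45 in MS1262 animals (difference -1.74, SE 0.34, adjusted p = 0.0186), at 0.800 ± 0.201 and 1.61 ± 0.774 CPM of input. Stard13, a GTPase-activating protein, fell from 1.25, 1.23, 1.39 and 1.32 to 0.31, 0.79, 0.66 and 0.46 (difference -0.75, SE 0.16, adjusted p = 0.0273). Ctnnd1, the p120 catenin that holds cadherins at the membrane, differed by -0.62 (adjusted p = 0.0333) and the noncoding AI506816 by -1.52 (adjusted p = 0.0426). Stard13 and Ctnnd1 lost their calls when any 1 of the 8 animals was left out (adjusted p up to 0.106 and 0.129), AI506816 when any but MS1262 4 was, and Anpep without wild-type 1 or 4 or MS1262 2 or 3.

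The next smallest p-values on the lower side, with no overlap of the groups, belonged to Aatf, Usp29, the NMDA receptor subunit genes Grin2b and Grin3a, Cops7b and Gna13. Grin2b had log2 ratios of 0.30, 0.21, 0.04 and 0.35 in wild-type and -0.23, -0.33, -0.22 and -0.14 in MS1262 animals, a difference of -0.46 (SE 0.11, adjusted p = 0.0633). Its adjusted p was 0.00227 without vehicle 4 and 0.00652 with the 16 libraries alone, and the sign turned to 0.19 on the TPM scale, on which Grin2b did not pass. Grin3a differed by -0.44, with an adjusted p of 0.0743 over all libraries and 0.00864 without vehicle 4.

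The vehicle-treated 5xFAD animals carry the same transgenes. Over the 223 genes the wild-type median log2 ratio was -0.06, that of vehicle animals 0.73 and that of MS1262 animals 0.91. Against wild-type the median difference over these genes was 0.81 for vehicle and 0.93 for MS1262 animals, against -0.06 and -0.0022 over all genes; both comparisons use the same wild-type libraries. Between MS1262 and vehicle, edgeR called 0 genes of 18300 (0%), 434 had an unadjusted p below 0.05, and DESeq2 called 2. The 223 genes were called with the same MS1262 libraries, so their differences from vehicle are partly set by that choice. They are given as a description and not as a test. The median of MS1262 minus vehicle over the 223 genes was 0.10, against 0.05 over all genes, and 18 of the 223 had an unadjusted p below 0.05. Reep2 was one, with 1.4, 1.34, 1.43 and 1.78 in vehicle animals and a difference of 0.63 (95% interval 0.21 to 1.06). Gfap differed by 0.33 (-0.03 to 0.68) and Trem2 by -0.08 (-0.47 to 0.31). Pef1, a calcium-binding protein gene, had the smallest p of the 223 genes against vehicle, with ratios of -0.21 to 0.07 in wild-type, -0.05 to 0.22 after vehicle and 0.48 to 0.68 after MS1262 (0.51 against vehicle, 95% interval 0.24 to 0.77), but this did not pass over all genes, and its call against wild-type was lost without wild-type 1 or MS1262 1, 2 or 3 (adjusted p up to 0.0806). Tmem63b, a channel gene, had the smallest p after Gm2004 in that comparison (-1.24, unadjusted p = 0.00021).

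Gene lists of cell types and pathways held 754 tested genes, of which 13 were called in ratio, all higher. Over all genes 1.22% were called higher in ratio and 0.91% in input. These are the shares to set beside each count of called genes given next. In the microglial, complement and reactive astrocyte lists more genes passed in input than in ratio. Of 30 disease-associated microglia genes, which plaque-associated microglia switch on, 18 were higher in input (median difference 1.37) and 2 in ratio, Trem2 and the iron store gene Fth1 (median 0.06). Fth1 had log2 ratios of -0.20, -0.01, 0.05 and -0.22 in wild-type and 1.05, 0.96, 0.97 and 0.81 in MS1262 animals (difference 1.04, SE 0.15, adjusted p = 0.00403), and its input difference was -0.34 (adjusted p = 0.49). Cst7, a cystatin of the same state, was at 0.412 ± 0.144 CPM of input in wild-type and 38.4 ± 15.3 CPM in MS1262 animals. Its ratio did not pass (2.08, SE 0.50, adjusted p = 0.0554). It passed without wild-type 3 (adjusted p = 0.0202), without vehicle 4 (0.0137) and with the 16 libraries alone (0.0258). It also passed without a filter on low counts, with DESeq2 and with the relation to length taken out. Of 20 complement and MHC genes 7 were higher in input and 1 in ratio, C1qb, a chain of the first complement component, with 0.21, 0.53, 0.50 and 0.04 in wild-type and 1.51, 1.45, 1.4 and 1.08 in MS1262 animals (1.04, SE 0.17, adjusted p = 0.00675). None of 16 homeostatic microglia markers passed in ratio and 5 were higher in input. Of 19 reactive astrocyte genes Gfap alone was called, 4 of 18 were higher in input, and the list's median ratio difference was 0.0006. In bulk tissue, more cells of a type and more RNA per cell cannot be told apart in the input values.

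**Figure D4:**
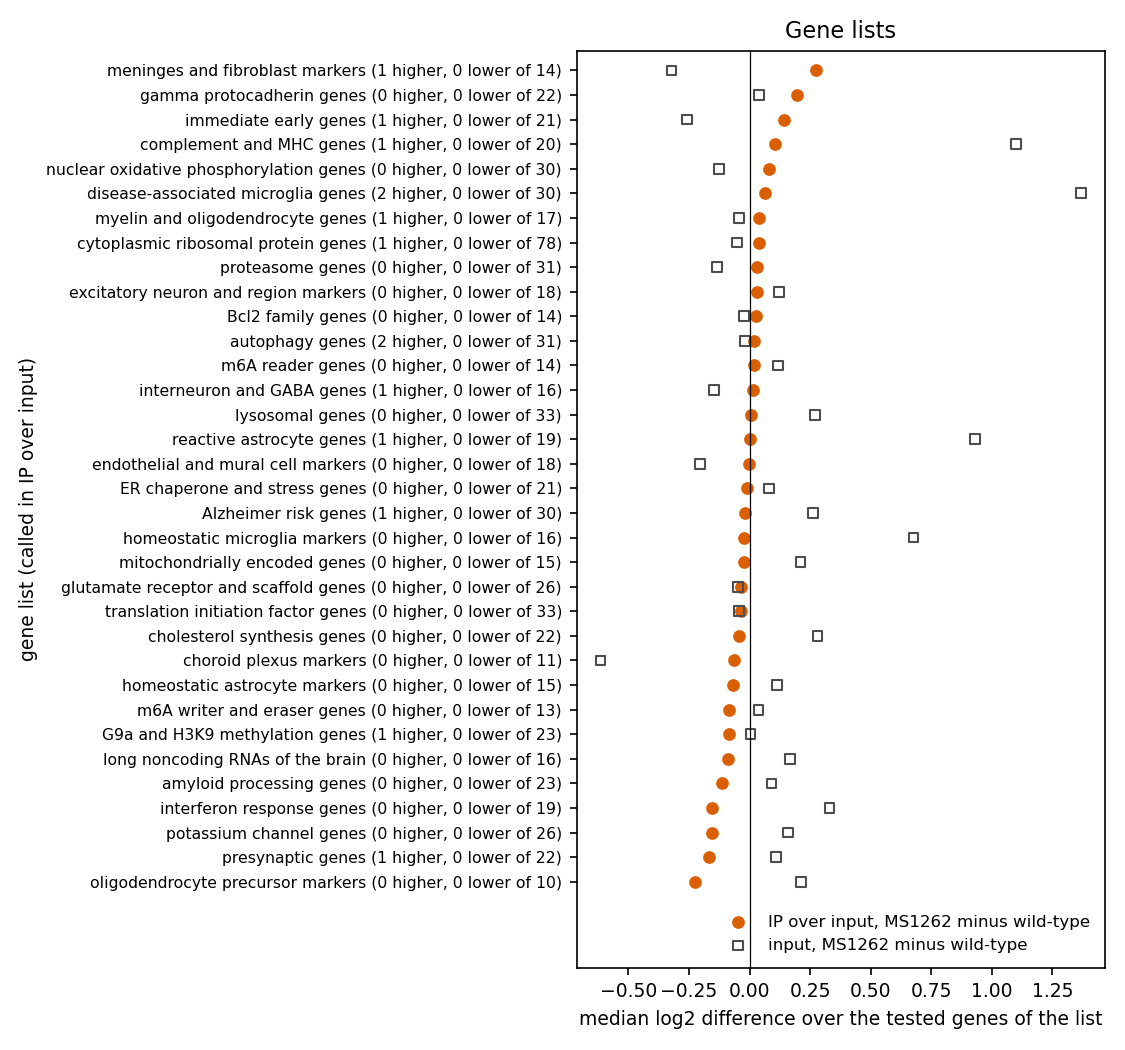
Median log2 difference over the tested genes of each list with at least 10 of them, for the ratio of IP to input (orange points) and for input (open squares), MS1262 minus wild-type. The input medians of the microglial, complement and reactive astrocyte lists reach 0.68 to 1.37, while the ratio medians of all lists shown stay between -0.22 and 0.28.

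Among myelin and oligodendrocyte genes, 1 of 17 was called, beside 1.22% of all genes called higher, and 5 had every MS1262 animal above every wild-type animal, beside 6.57% of all genes. With the 16 libraries alone 4 were called higher, beside 610 of 17883 genes. Olig1, a transcription factor of the lineage, was at -0.44, 0.18, 0.26 and -0.00 in wild-type and 1.27, 1.06, 0.82 and 0.76 in MS1262 animals (0.99, SE 0.21, adjusted p = 0.0273), and kept its call only without wild-type 2 or 3. Mag and Mbp, which encode proteins of the myelin sheath, differed by 0.70 (adjusted p = 0.0749) and 0.33 (adjusted p = 0.19), with adjusted p of 0.0135 and 0.00686 without vehicle 4. Of 10 oligodendrocyte precursor markers none was called over all libraries. With the 16 libraries alone 1 was called higher and 2 lower, beside 610 and 123 of 17883 genes. In 4 of the 10 markers the MS1262 animals lay below the wild-type animals without overlap and in 1 above, beside 3.95 and 6.57% of all genes. The list's median was -0.22.

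Sst, the somatostatin of an interneuron class, was the 1 of 16 interneuron and GABA genes called. Its input fell to 69.1 ± 6.496 from 150 ± 37.9 CPM (adjusted p = 0.0048) and its IP level was 109 ± 7.38 against 122 ± 33.9 CPM, and the log2 ratio rose from -0.37, -0.11, -0.28 and -0.46 to 0.47, 0.51, 0.74 and 0.93 (0.97, SE 0.17, adjusted p = 0.0116). That call was lost without wild-type 1 or 4 or MS1262 3 (adjusted p up to 0.0594). Of 22 presynaptic genes 1 was called, Cplx2, which clamps vesicle fusion, at -0.30 to 0.04 in wild-type and 0.48 to 0.69 in MS1262 animals (0.75, adjusted p = 0.0155; lost without wild-type 1 or 4 or MS1262 3 or 4). The list's median was -0.17, and 4 of its genes were lower without overlap against 2 higher, beside 3.95 and 6.57% of all genes. Of 26 potassium channel genes none was called, 5 were lower without overlap and none higher, with a median of -0.16, beside 3.95% of all genes lower without overlap. Arc, which is transcribed on synaptic activity, was the 1 of 21 immediate early genes called, at 0.30, 0.31, -0.41 and -0.26 in wild-type and 1.54, 1.09, 1.44 and 0.75 in MS1262 animals (1.24, SE 0.23, adjusted p = 0.0127), and lost its call without wild-type 4 or MS1262 3 (adjusted p up to 0.0645).

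The transcripts of the m6A machinery and of the compound's target were not called over all libraries. None of 13 m6A writer and eraser genes or 14 reader genes passed in ratio or in input over all libraries. Of all 17883 genes tested with the 16 libraries alone, 610 were called higher and 123 lower. Without vehicle 4 it was 683 and 175 of 18589. With the 16 libraries alone Mettl5, a methyltransferase of ribosomal RNA, passed (0.67, adjusted p = 0.0218, and 0.0242 without vehicle 4), as did Rbmx (0.58, adjusted p = 0.0313 and 0.0150) and the stress granule gene G3bp1 (-0.38, adjusted p = 0.0297 and 0.0178). Mettl3 differed in ratio by -0.08 (adjusted p = 0.94) and in input by 0.04 (adjusted p = 0.94), Mettl14 in ratio by 0.35 (adjusted p = 0.52), Alkbh5 by 0.16 (adjusted p = 0.89) and Fto by -0.39 (adjusted p = 0.43). Ehmt2, which encodes G9a, had log2 ratios of 0.78 to 0.85 in wild-type and 0.38 to 0.87 in MS1262 animals (-0.23, adjusted p = 0.85), and its partner Ehmt1 differed by -0.26 (adjusted p = 0.72). Of 23 G9a and H3K9 methylation genes 1 was called, the H3K9 demethylase Kdm4b, at -0.03 to 0.64 in wild-type and 1.04 to 1.37 in MS1262 animals (0.96, SE 0.18, adjusted p = 0.0155; lost without wild-type 1 or 4 or MS1262 3). None of 23 amyloid processing genes and none of 33 lysosomal genes was called in ratio over all libraries, though 11 lysosomal genes were higher in input. With the 16 libraries alone, and also without vehicle 4, 1 amyloid processing gene and 4 lysosomal genes were called higher and none lower. These counts are to be set beside the calls over all genes under the same settings, given above. Of 31 autophagy genes 2 were called, Atg12 (0.56, adjusted p = 0.0333) and Map1lc3a, which encodes an LC3 protein of the autophagosome membrane (0.80, adjusted p = 0.038), and both calls were lost when any 1 of the 8 animals was left out. The anti-apoptotic gene Bcl2l1 had high ratios in both groups, at 2.35 to 3.03 in wild-type and 2.53 to 3.11 in MS1262 animals, and differed by 0.25 (adjusted p = 0.74).

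Transcripts of the cytoplasmic ribosome and of the mitochondrial genome had low ratios in both groups. The 78 cytoplasmic ribosomal protein genes had a median log2 ratio of -0.56 in wild-type and -0.55 in MS1262 animals, and 1 was called, Fau, at -1.24 to -0.79 and -0.39 to 0.03 (0.78, adjusted p = 0.0313; lost when any 1 of the 8 animals was left out). The 15 mitochondrially encoded transcripts had medians of -1.10 and -1.12. Families that recurred among the calls were counted after their values were seen. Of 78 mitochondrial ribosomal protein genes 8 were called higher (10.3%, family median 0.08) and of 37 complex I subunit genes 4 (10.8%, median 0.19). Both ferritin genes, Fth1 and Ftl1, were called. Of 24 mitochondrial import genes 2 were called higher (median 0.04) and of 5 prefoldin genes 2 (median -0.03). Of 6 insulin-like growth factor binding protein genes 3 were (median 0.43). Over all genes 1.22% were called higher. Of the list of 30 nuclear oxidative phosphorylation genes, which holds complex I subunits too, none was called (median 0.08). With the 16 libraries alone 3 of the 30 were called higher, beside 610 of 17883 genes.

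Most genes called higher had transcripts shorter than the median. Their median length, from the authors' counts and TPM, was 0.70 times that of all genes, and 155 of 223 (69.5%) were below the median of all genes. With genes put in 5 equal classes of length, 74 of 3406 genes were called higher in the shortest class, and 1.76, 1.06, 1.03 and 0.529% in the next ones up to the longest, and the median difference of all genes was 0.09 in the shortest and -0.11 in the longest class. The relation of ratio and length did not overlap between the groups. Spearman's correlation coefficient across 9331 genes, which are not independent replicates, was 0.06 to 0.15 in the wild-type animals and -0.09 to -0.01 in the MS1262 animals. With each library's relation to length taken out, in a fit added after the data were seen, 254 genes were higher and 5 lower, and 211 of the 223 genes were among those higher.

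The authors' peak lists show the same libraries by position. Each animal's list set its IP against its input, at a threshold of q 0.5. The MS1262 animals had 4393, 5289, 5604 and 6097 peak regions and the wild-type animals 3534, 5004, 4115 and 4410, a difference of 1080 in the means (5346 ± 717 and 4266 ± 612, SD). The groups overlapped and the exact 2-sided permutation test gave p = 0.08571, of a smallest possible 0.02857. In the same order of animals the IP libraries held 31.2, 35.2, 34.4 and 51.9 M tags in MS1262 and 21.8, 60.4, 14.8 and 26.2 M in wild-type. The deepest, wild-type 2, had the most peak regions of its group, and 34.8% of the called genes held a peak in it. The part of depth in the number and presence of peaks was not tested. Of the 221 genes called higher that had a position, 69.2 to 74.7% held a peak in the MS1262 animals, 11.8 to 34.8% in the wild-type animals and 52.5 to 76.0% in the vehicle animals, while 10.3 to 19.3% of all genes did in any of the animals. The genes called higher were better counted, with a median of the mean log2 CPM of 4.74 against 3.09 over all genes tested. The part of that level in the shares with a peak was not tested. These peaks come from the reads that gave the counts and are no second test. A peak in at least 3 MS1262 animals and in no wild-type animal was found in 70 of the 221 genes (31.7%) and in 320 of all 16881 genes (1.9%). The reverse was found in none of the 221 and in 62 of all (0.367%). Trem2, Crip2, Mrps12, Zfp414, Znrd2, Olig1, Arc and Kdm4b held a peak in all 4 MS1262 animals and in no wild-type animal. Vehicle animals held peaks in these genes too. Crip2 and Zfp414 had one in 4 vehicle animals, Trem2 and Mrps12 in 3, and Znrd2, Olig1, Arc and Kdm4b in 2. Gfap held 7 peaks in each MS1262 animal with a highest fold enrichment of 5.48 to 6.63, and 1 to 3 peaks in each wild-type animal with a highest of 1.56 to 3.10. In the vehicle animals Gfap held 8, 7, 7 and 6 peaks with a highest of 5.67 to 8.10. Pex6, Zfp64 and Serpinh1 held none in either group, though their counts passed.

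**Figure D5:**
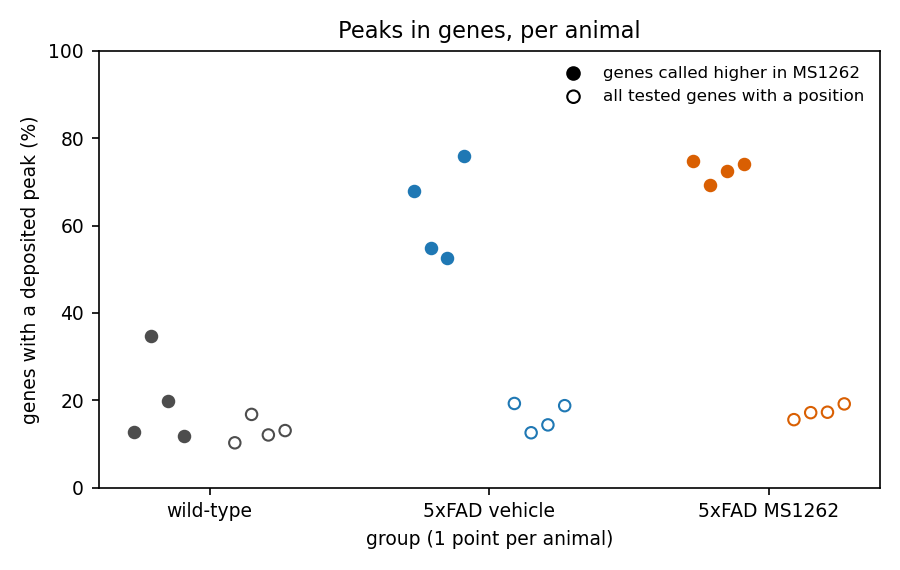
Percentage of the 221 positioned genes called higher (filled points) and of all 16881 positioned genes (open points) that held at least 1 deposited peak, with 1 point per animal. The filled points of MS1262 animals lie at 69.2 to 74.7% and those of wild-type animals at 11.8 to 34.8%.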

How the data were processed

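Hippocampal poly(A) RNA of 12 mice was split into an input and an m6A IP library per animal. The authors deposited estimated counts and TPM per gene from Salmon 1.4.0, with STAR 2.7.6a and the GRCm38 build named in the submitters' processing notes. Peak lists from MACS2 2.1.2 hold, per the file headers, the pileup signal, the fold enrichment ratio and −log10 p and q values of each animal's IP against its input. Gene positions and names were from RefSeq (GRCm38.p6).

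Estimated counts as deposited were rounded and tested with edgeR 4.0.16 (R 4.3.3): genes were kept by filterByExpr with a minimum count of 10, scaled by TMM and tested by the quasi-likelihood method with animal as block and IP by group terms over all 24 libraries, Benjamini-Hochberg adjusted p below 0.05. Input expression used the 12 inputs. Input and IP of an animal correlated best with each other in 12 of 12 animals (0.35 to 0.61), whereas replicate numbers did not pair animals between groups (-0.06 to 0.07). Per-animal values are differences of log2 CPM with a prior count of 2. Scripts were tested on simulated data. Alternatives were limma 3.58.1, DESeq2 1.42.0, other scalings and filters, other blocks and left-out animals. Peak numbers were compared by exact permutation. The labels number biological replicates and give no batch or date, and p-values measure only the spread between these animals.

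Named genes were a set chosen for the model, the compound and m6A, the 15 largest called differences in each direction (mean log2 CPM of at least 1, no overlap of groups, no predicted genes or pseudogenes) or the smallest p where fewer passed, the smallest p of each described list, and the 5 smallest p against vehicle. Members and lists were chosen with earlier results of these data known. Some items are not reported here.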

Additional observations from a re-analysis of the deposited data

Results flagged for a closer look

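Among the 89 named genes, 178 groups of 4 animals were searched for an animal far from the other 3, which chance gives in about 1 in 20 groups, and 10 were found. In MS1262 1 the log2 ratio of IP to input was 0.47 for Fto (1.00 to 1.03 in the others), 1.09 for Pigyl (1.62 to 1.73), 1.02 for Sirt2 (1.60 to 1.71) and 0.71 for H2-D1 (0.18 to 0.20). In MS1262 2 it was -0.07 for Hsf3 (0.75 to 0.84). In wild-type 1 it was 0.00 for Lcn2 (1.1 to 1.22) and 0.04 for Slc1a2 (-0.07 to -0.06), in wild-type 2 it was -0.07 for Aatf (0.24 to 0.29) and -3.05 for Gm2004 (0.00 in the others), and in wild-type 3 it was -1.21 for Map1lc3a (-0.89 to -0.86).

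In 16 named genes every wild-type animal had a ratio on one side of 0 and every MS1262 animal one on the other. This change of sign was not tested, and no share over all genes stands beside the count. Many of the named genes were chosen for groups without overlap or for a small p in this same comparison. That choice favours such a count, which is given as a description. The ratios are relative to the other genes of the library, so the place of 0 depends on the scaling. Of the 15 given here, the log2 differences were 1.29 for Trem2, 1.57 for Crip2, 1.53 for Mrps12, 1.51 for Zfp414, 0.97 for Sst, 0.56 for Atg12 and 1.43 for Igfbp2, which passed over all genes. Igfbp2 lost its call without any 1 of the 8 animals but wild-type 2, with an adjusted p of up to 0.123. They were -0.46 for Grin2b, -0.48 for Sox6, 0.58 for Rab3a, 0.69 for Shank3, 0.38 for Aplp1, -0.31 for Abca1, 0.80 for Ndufs7 and 0.73 for Rpl18, which did not pass.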

How the results depend on the processing

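The 227 calls between MS1262 and wild-type became 529 without a filter on low counts, 486 with DESeq2, 733 with only the libraries of the groups compared, 50 with limma on log2 CPM, 3 with limma on log2(TPM + 1) and 0 on log2(TPM + 0.1), where 1550 genes had an unadjusted p below 0.05. With no block for the animal, so that input and IP of an animal were not paired, 1 gene was called. With a replicate block across groups 120 were called, although the replicate numbers did not pair animals between groups. Leaving out 1 animal gave 58 to 858, the highest being without vehicle 4, an alternative chosen after seeing the data, as were leaving out vehicle 3 (212) and the length offset (259). The 223 genes kept a difference above 0 in each of these settings where they were tested. Their choice as higher in these same libraries favours that sign, so it is given as a description and not as support. The 0 calls against vehicle became 44 without a filter, 2 with DESeq2 and 1 with a replicate block across groups, and stayed 0 to 0 with an animal left out. The 230 input calls became 642 with DESeq2 and 94 with limma on log2(TPM + 1), 168 with a replicate block, and 105 to 174 with an animal left out. The difference in peak numbers was 898.0 at a −log10 q of at least 5, 99.0 at a fold enrichment of at least 3, and 829.6 to 1397.6 with an animal left out. Of the 89 named genes 5 turned sign, and none of them had passed as reported. App (-0.01) gave 0.0063 without a filter, 0.0031 at a minimum count of 50, and 0.0399, 0.00039 and 0.006 without wild-type 1, wild-type 4 and MS1262 1, in a range of -0.0653 to 0.0399 with an animal left out. Grin2b gave 0.19 on both TPM scales. Tmem63b gave 0.0538 without MS1262 1 (-0.177 to 0.0538). Gm2004 gave -5.67 with DESeq2, -2.36, -0.73 and -1.84 with limma on log2 CPM, log2(TPM + 1) and log2(TPM + 0.1), and -4.75 and -2.85 without wild-type 2 and MS1262 2 (-4.75 to 2.00). Hsf3 gave -0.0059 with RLE factors, -0.0100 with DESeq2, -0.15 with limma on log2(TPM + 1), -0.197 with no block for the animal and -0.0054 with the length offset. It gave -0.495, -0.0959, -0.0843 and -0.0604 without wild-type 1 and MS1262 1, 3 and 4 (-0.495 to 0.301). The cause was not tested. Counts without molecular identifiers are not independent molecules, and genes near 1 CPM have wide ratios.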
